A study of Bos taurus with 15 samples.

Results

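The comparison described here is that of mammary tissue taken 24 h after dexamethasone (DEX) with tissue taken at 0 h, just before the injection. Its members were chosen by their time labels and paired by cow, which gave 4 libraries at each time point, or 8 of the 15 libraries of the series. The samples were needle biopsies from 4 Holstein cows in lactation that were not pregnant. All 4 received a single intramuscular injection of 40 mg of DEX, and no cow went without it, so the 0 h biopsy of each cow was its own control. Biopsies were taken from 1 gland of the udder per time point, the first gland at 0 h and the third at 24 h in every cow, and all cows received ampicillin over the biopsy period. Time after DEX, the gland sampled and the number of earlier biopsies therefore cannot be told apart in any value below. The 0 h and 24 h biopsies fell at the same time of day, while the 12 h biopsies did not. Libraries were made by 3′ tag RNA-seq, in which each read comes from the end of a transcript, so that levels of different genes can be set side by side without correction for length.

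Dexamethasone is a synthetic glucocorticoid that binds the glucocorticoid receptor, a transcription factor present in most cells. The bound receptor enters the nucleus, where it raises the transcription of some genes and represses that of others. In the lactating gland, glucocorticoids act with prolactin and insulin to maintain the transcription of milk protein genes, and a large dose of a synthetic glucocorticoid is known to lower milk yield for some days. Genes are listed in the data by Ensembl identifier alone. None of the identifiers could be paired with a gene symbol here (0 matched), so the tissue could not be checked against its marker genes and no pathway is named. Most genes are therefore described by their rank. The biopsy is a mixture of cell types, and for every gene fewer cells of a type and less RNA per cell cannot be told apart.

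Reads assigned to genes numbered 4908162, 4605321, 3471164 and 1804120 at 0 h in cows 1 to 4. At 24 h they numbered 4824885, 6228132, 4479772 and 4029166. The 24 h libraries were the deeper set as a whole, with 1.32 times the reads of the 0 h set, and cow 4 had the fewest reads at 0 h. Values are the deposited normalized counts, which are CPM (reads of a gene as a share of the library's reads) after a further correction by 1 scaling factor per library. Cow 1 stood apart in that factor, which was 1.25 at 0 h and 0.808 at 24 h. In cows 2, 3 and 4 it was 1.01, 1.04 and 1.04 at 0 h and 1.14, 0.955 and 1.09 at 24 h. Cow 1 also has no 72 h library. A cow of the study stopped ruminating and was removed before its last biopsy, but its number is not given, and cow 1 is the cow whose libraries end at 24 h. The main counts are therefore given with and without it.

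At 24 h post-DEX, expression rose for 460 genes and fell for 382 out of 7536 tested, relative to 0 h and at an adjusted p (limma, Benjamini-Hochberg) under 0.05. These 842 genes were 11.2% of those tested, with 6.1% higher and 5.07% lower. The typical called gene changed 2.00-fold in one direction or the other (median size 1.00 on the log2 scale). The median was 0.96 among genes that rose and -1.04 among genes that fell, against 0.01 over all genes tested. Changes above 1 on the log2 scale were found for 214 higher and 207 lower genes. The upper end was less even. A change above 2 was found for 37 higher and 15 lower genes, and one above 3 for 10 higher genes and 1 lower gene.

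The changes of the called genes were shared by the cows. All 4 cows moved the same way in 790 of the 842 genes, against 29.1% of all genes tested. The 4 values at 24 h lay wholly above or below the 4 values at 0 h in 600 of them, or 71.3%, against 12.7% of all genes tested. Of these, 339 were higher (7.01% of all genes tested had non-overlapping higher values) and 261 were lower (5.73%). Since the genes were called on the same values, these shares describe them and are no further test. Across genes, the correlation of changes between pairs of cows ran from 0.186 (cows 1 and 2) to 0.472 (cows 1 and 3).

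**Figure D1:**
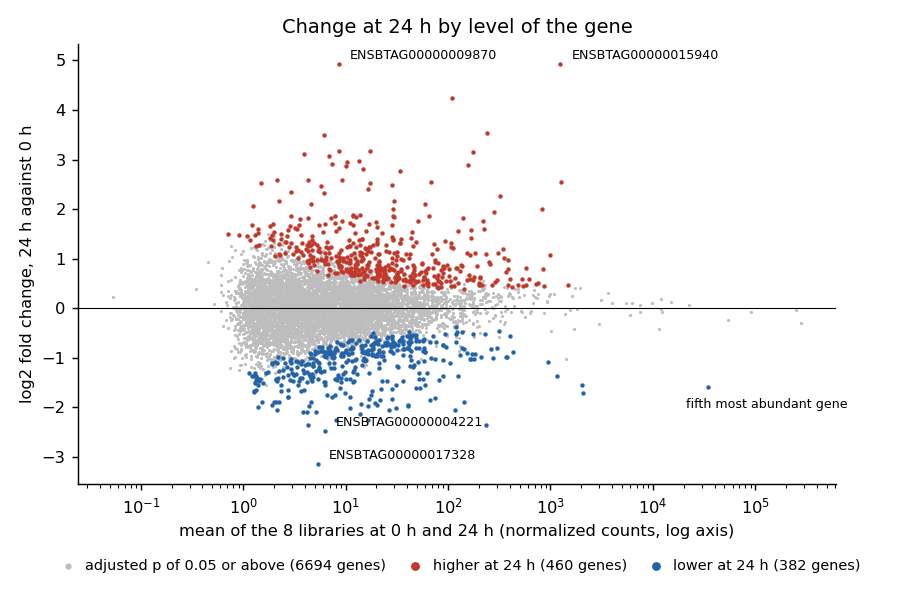
Each point is 1 of the 7536 genes tested, with its mean over the 8 libraries at 0 h and 24 h on the x axis (normalized counts, log axis) and its fitted log2 fold change at 24 h against 0 h on the y axis. The 460 genes higher at 24 h (red) and 382 lower (blue) at an adjusted p under 0.05 spread over most levels, and the rises reach farther from 0 than the falls.

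Cow 1 added to the number of genes called. Without cow 1, 556 genes passed (7.38% of those tested), 338 higher and 218 lower, and 496 of them were also among the 842. The overlap was 58.9% of the larger list and 89.2% of the smaller. Leaving out cow 2 gave 794 genes, cow 3 gave 420 and cow 4 gave 488. The genes called with all cows and again with each cow left out numbered 291, of which 169 rose and 122 fell. The response of the called genes, taken as the median change in their common direction, was 1.17 on the log2 scale in cow 1, 0.86 in cow 2, 0.92 in cow 3 and 0.96 in cow 4. Cow 2 had the smallest response and the lowest share of the 842 genes in the common direction, 96.2%, against 98.6%, 99.4% and 99.5% in cows 1, 3 and 4.

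The number of rises against falls depended on how the libraries were scaled. With the deposited normalization, 54.6% of the called genes were higher. Without the scaling factor, as plain CPM, 791 genes passed and 70.0% of them were higher, and the median of all genes tested moved to 0.12 on the log2 scale. With totals that left out the 20 most abundant genes, 910 passed and 39.3% were higher. Neither direction can be called the more frequent from these data. The larger changes described next were much greater than these shifts.

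The largest rise was that of ENSBTAG00000009870. It had normalized counts of 0, 0, 0.301 and 0 in cows 1 to 4 at 0 h, and of 15.2, 11, 24.3 and 18.6 at 24 h. The 0 h values rest on 1 read in all 4 libraries together and the 24 h values on 334 reads. The ratio of the pooled levels was 228, with a 95% counting interval from 40.6 to 9026. The gene was thus almost unread before DEX and was read in every cow at 24 h, with a fitted change of 4.93 ± 0.31 (SE, n = 4 cows) on the log2 scale and an adjusted p of 1.25e-09 (limma). Its level at 12 h was higher still, at 86.5, 35.2, 224 and 95.6, and the decline from 12 to 24 h passed the threshold (log2 change -2.40, adjusted p = 7.52e-05, limma). At 72 h it was back at 0.408, 0.464 and 0.418 in cows 2, 3 and 4.

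ENSBTAG00000015940 rose from a far higher level. Its normalized counts were 256, 54.2, 34.6 and 24.3 in cows 1 to 4 at 0 h, and 3935, 3124, 2206 and 384 at 24 h. Cow 1 was the highest and cow 4 the lowest of the cows at both times, and the lowest value at 24 h was above the highest at 0 h. The fitted change was 4.93 ± 0.32 (SE, n = 4 cows; adjusted p = 2.48e-09, limma), and the mean rose 26.1-fold, from 92.3 ± 109.8 to 2412 ± 1526 (SD, n = 4). The fitted changes of this gene and of ENSBTAG00000009870 are equal only on the log2(normalized count + 0.5) scale, which understates the change of the gene with few reads. It ranked 34th by mean level over the 8 libraries. Unlike the gene above it was still higher at 24 h than at 12 h, when it stood at 3454, 2316, 642 and 113 (log2 change 1.04, adjusted p = 0.0496, limma). The difference between 12 and 24 h was smallest on the log2 scale in cows 1 and 2. At 72 h it was at 1247, 613 and 228, in each of cows 2, 3 and 4 below the 24 h value and above the 0 h value.

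**Figure D2:**
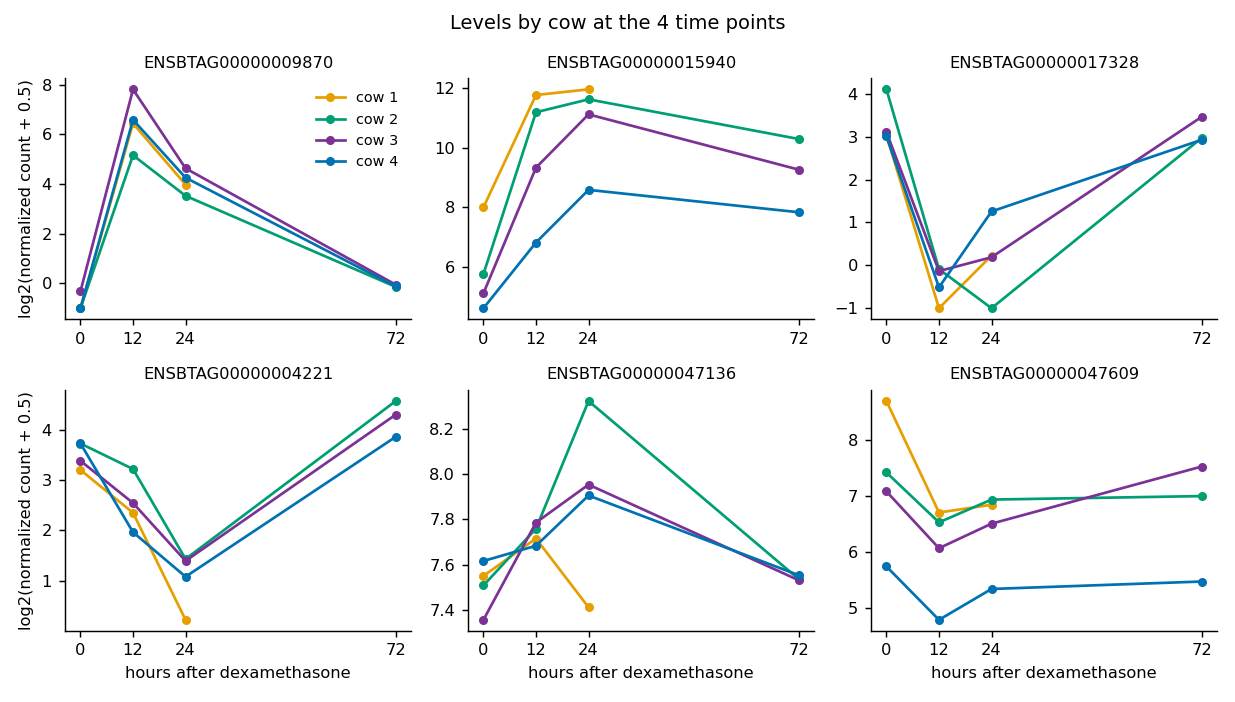
Each panel is 1 gene, with hours after DEX on the x axis, log2(normalized count + 0.5) on the y axis and 1 line per cow (cow 1 ends at 24 h). ENSBTAG00000009870 is highest at 12 h in every cow and ENSBTAG00000015940 is highest at 24 h in every cow, while ENSBTAG00000017328 and ENSBTAG00000004221 are low at 24 h and back at or above 7.11 normalized counts at 72 h.

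The gene with the third largest rise had 5.88, 8.78, 10.2 and 19.1 normalized counts at 0 h and 154, 168, 187 and 331 at 24 h. Cow 4 was the highest and cow 1 the lowest at both times, and the change was nearly even among the cows, at 4.6, 4.19, 4.13 and 4.08 on the log2 scale (fitted 4.25 ± 0.32, SE, adjusted p = 1.87e-08, limma). At 72 h it was at 2.85, 4.33 and 1.05, below the 0 h value of the same cow in each of the 3 cows. The gene with the fourth largest rise had 47.8, 7.46, 44.2 and 64.8 at 0 h and 161, 346, 443 and 823 at 24 h. Its response was uneven, with log2 changes of 1.74 in cow 1 and 5.44 in cow 2. The fitted change rose from 3.54 to 4.14 without cow 1 (adjusted p = 7.94e-07 with cow 1 and 1.49e-08 without it, limma). Without cow 2 the fitted change was 2.90 (adjusted p = 3.97e-06, limma).

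Among the 10 largest rises, those ranked 7 and 8 had the closest values among the cows at 24 h. The gene of rank 7 had 3.32, 2.41, 2.11 and 4.63 normalized counts at 0 h and 29.7, 33.9, 34.1 and 27.0 at 24 h, a rise of the mean from 3.12 ± 1.13 to 31.2 ± 3.48 (SD, n = 4). The gene of rank 8 had 40.9, 24.4, 26.5 and 52.7 at 0 h and 256, 369, 317 and 306 at 24 h, from 36.1 ± 13.3 to 312 ± 46.3 (SD, n = 4). In both, cow 4 was highest at 0 h and the lowest or next to lowest at 24 h, and the groups were far apart. Both were lower at 24 h than at 12 h (adjusted p = 0.000409 and 0.0179, limma), when they stood at 73.5 to 96.1 and 384 to 640.1.

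The other rises among the 10 largest were from low starting levels, from 0 to 4.05 normalized counts at 0 h. The gene of rank 5 went from 0.219 to 1.02 at 0 h to 7.20, 14.3 and 5.97 in cows 1 to 3 and its highest value in cow 4 at 24 h, after 24.5 to 38.3 at 12 h. That of rank 6 stood at 10.8 to 22.6 at 24 h and at 12.7 to 16.1 at 12 h, with no difference past the threshold between those times (log2 change 0.08, adjusted p = 0.923, limma). The genes of ranks 9 and 10 reached 3.30 to 18.3 and 8.62 to 32.3 at 24 h. The gene of rank 9 was the only one of the 10 whose groups overlapped, since cow 2 at 24 h (3.30) lay below cow 4 at 0 h (3.47). For the gene of rank 10, cow 2 had the smallest rise, 1.35 on the log2 scale against 2.79 to 3.91 in the other cows.

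**Figure D3:**
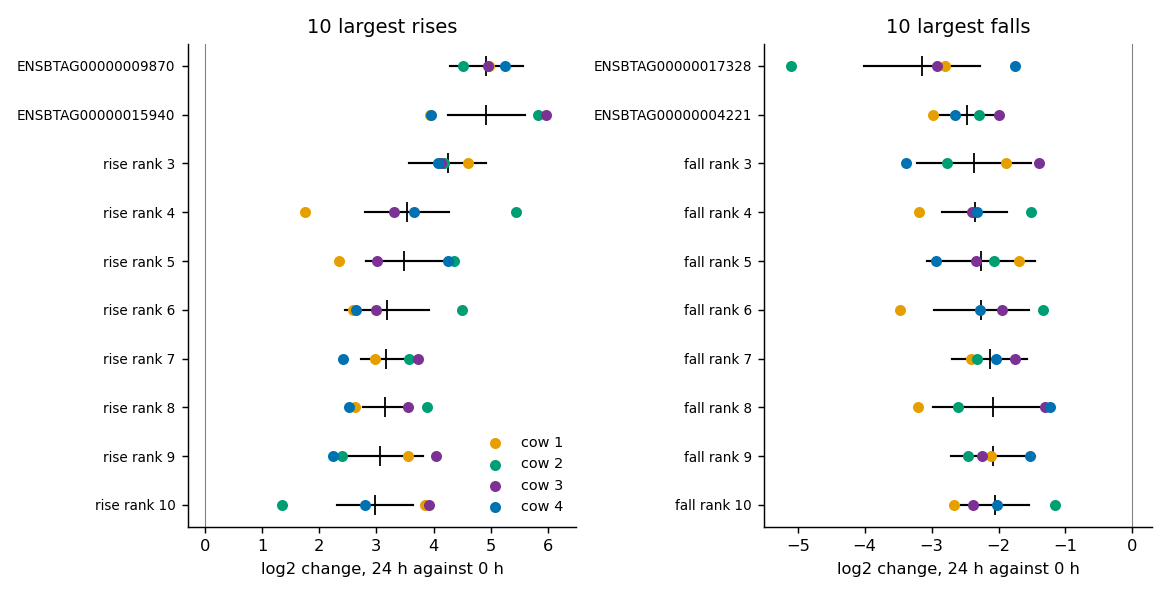
The 10 largest rises (left) and 10 largest falls (right) at 24 h against 0 h, with the log2 change of each cow as a point, the fitted change as a tick and its 95% interval as a line. All points lie on the side of the fitted change because the genes were chosen for a common direction. Cow 1 is the lowest for the rise of rank 4 (1.74), and cow 2 is the farthest from 0 for the largest fall (-5.10).

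The largest fall was that of ENSBTAG00000017328, with 7.67, 16.7, 8.12 and 7.53 normalized counts in cows 1 to 4 at 0 h and 0.670, 0, 0.640 and 1.89 at 24 h. Cow 2 had the highest value at 0 h and no read at 24 h, which at the depth of that library allows up to 0.550 normalized counts (3 reads). The fitted change was -3.14 ± 0.41 (SE, n = 4 cows; adjusted p = 2.39e-05, limma), and -2.49 without cow 2 (adjusted p = 0.000708, limma). The 12 h values were as low, at 0, 0.441, 0.410 and 0.200, and the change between 12 and 24 h was 0.60 with an adjusted p of 0.423 (limma). At 72 h it stood at 7.34, 10.5 and 7.11.

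ENSBTAG00000004221 fell in steps. It had 8.69, 12.7, 9.93 and 12.7 normalized counts at 0 h, 4.6, 8.81, 5.33 and 3.41 at 12 h, and 0.670, 2.20, 2.13 and 1.62 at 24 h. Every cow was lower at 12 h than at 0 h and lower again at 24 h, and the groups at 0 h and 24 h were well apart. The fitted change was -2.47 ± 0.25 against 0 h (SE, n = 4 cows; adjusted p = 1.12e-06, limma) and -1.49 against 12 h (adjusted p = 0.000885, limma). At 72 h it was at 23.2, 19.2 and 14, above the 0 h value of the same cow in cows 2, 3 and 4.

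Of the 10 largest falls, the gene of rank 4 was the most abundant. It had 356, 404, 481 and 301 normalized counts at 0 h and 38.7, 141, 90.8 and 59.6 at 24 h. Cow 1 fell farthest, by 3.19 on the log2 scale, and cow 2 least, by 1.51, but the highest value at 24 h, 141, was below the lowest at 0 h, 301 (fitted change -2.36 ± 0.23, SE, adjusted p = 7.22e-07, limma). At 12 h the values were 281, 277, 159 and 168, between the 0 h and 24 h values in each cow. The change between 12 and 24 h was -1.53 (adjusted p = 0.000376, limma).

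The other falls among the 10 largest started from 3.61 to 54.4 normalized counts at 0 h and reached 0.183 to 19.6 at 24 h, with no overlap between the times in any of them. The fall of rank 10 was the next most abundant, with 28.1, 44.3, 42.1 and 54.4 at 0 h and 4.02, 19.6, 7.67 and 12.9 at 24 h. Of all 10, 3 were lower at 24 h than at 12 h past the threshold and 0 were higher. Of the 10 largest rises, 4 were lower at 24 h than at 12 h and 1 was higher. Over all genes tested, 653 differed between 24 and 12 h (8.67%), with 278 higher (3.69%) and 375 lower (4.98%) at 24 h. This count fell to 323 without cow 1, 241 without cow 3 and 332 without cow 4, and was 572 without cow 2. The comparisons of 24 h with 0 h and with 12 h share the 24 h libraries, and the 12 h biopsies came from another gland at another time of day.

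Level mattered for how many genes passed. Genes were divided by their mean over the 8 libraries, and 4.44% of the 2723 genes under 4 normalized counts were called, 9.2% of the 1924 from 4 to 10, 17% of the 2553 from 10 to 100, 34.2% of the 298 from 100 to 1000 and 18.4% of the 38 at 1000 and above. Without cow 1 the shares were 2.39%, 5.3%, 11.3%, 30.9% and 21.1%, in the same order of classes. The share at 1000 and above was 36.8% with plain CPM and 28.9% with totals that left out the 20 most abundant genes. The median SE of the log2 change was 0.34 for genes under 10 and 0.15 for genes of at least 100. The median size of the called changes fell from 1.40 on the log2 scale in the lowest class to 0.82 from 100 to 1000, but was 1.58 for the 7 called genes at 1000 and above. In the class from 100 to 1000, 71 genes rose and 31 fell. This excess of rises was 103 against 23 with plain CPM and 73 against 19 without cow 1, but 68 against 49 with totals that left out the 20 most abundant genes, and 47 against 54 with quantile normalization. With median-ratio scaling, 72 rose and 31 fell. Of these scalings, only quantile normalization turned the direction of the class. That method gives all libraries the same distribution of values. Whether the excess of rises belongs to the class or to the scaling was not tested.

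**Figure D4:**
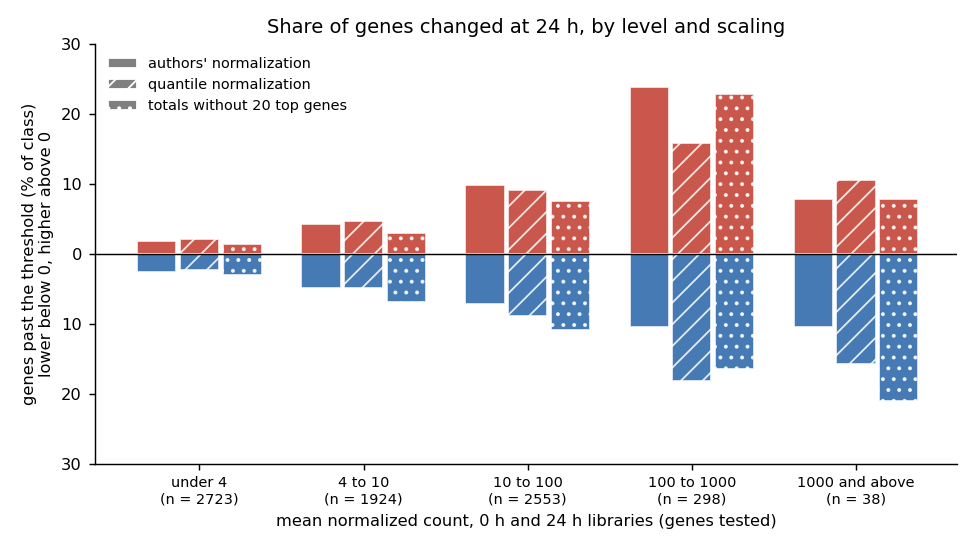
Bars give the percent of genes tested that were higher (above 0) and lower (below 0) at 24 h in each class of mean normalized count, with the authors' normalization (plain), quantile normalization (hatched) and totals without the 20 most abundant genes (dotted). The class from 100 to 1000 has the largest share of higher genes in all 3 scalings, and its excess of higher genes is absent with quantile normalization.

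The most abundant genes made up much of each library. The 2 most abundant held between 47.7% and 54.4% of the reads at 0 h and between 48.4% and 53.5% at 24 h. The first had 380285, 264936, 301481 and 295071 normalized counts at 0 h and 203582, 272794, 236191 and 299790.0 at 24 h. Its values overlapped, with falls in cows 1 and 3 (-0.90 and -0.35 on the log2 scale) and little movement in cows 2 and 4, and the fitted change was -0.30 on the log2 scale with a 95% interval from -0.92 to 0.33. For the other three of the 4 most abundant genes the changes were -0.04 (from -0.65 to 0.57), -0.08 (from -0.59 to 0.42) and -0.23 (from -0.71 to 0.25), and none passed the threshold. The signs of these 3 changed under some scalings, each to a value that did not pass either. The intervals are wide, and the data do not show that any of the 4 was unchanged.

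The fifth most abundant gene fell. It had 71146, 45224, 34984 and 53965 normalized counts in cows 1 to 4 at 0 h and 13960.3, 27368, 12327 and 16245 at 24 h. The highest value at 24 h, in cow 2, was below the lowest at 0 h, in cow 3. Its mean went from 51329.7 ± 15320.1 to 17475 ± 6788 (SD, n = 4), with a fitted change of -1.58 ± 0.24 (SE, adjusted p = 0.000105, limma) and of -1.32 without cow 1 (adjusted p = 0.000627, limma). As a share of the reads it went from 5.67%, 4.47%, 3.35% and 5.17% to 1.73%, 2.40%, 1.29% and 1.5%. At 12 h the values were 23279.7, 24644, 15743 and 22735, already below every 0 h value, and 3 of the 4 cows were lower again at 24 h. The change from 12 to 24 h was -0.36 ± 0.24 (SE), which did not pass the threshold (adjusted p = 0.399, limma). At 72 h the gene was at 36269.6, 38601 and 33080.1 in cows 2, 3 and 4, below the 0 h value in cows 2 and 4 and above it in cow 3.

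This single gene carried most of what the called genes lost from the libraries. The 382 genes that fell took 5.83% to 7.83% of the reads at 0 h and 2.56% to 3.89% at 24 h. Without the fifth most abundant gene they took 2.16% to 2.48% and 0.964% to 1.49%. The 460 genes that rose took 1.82% to 2.15% at 0 h and 3.94% to 5.27% at 24 h. Since the genes were picked by these values, the shares give the scale of the change and are not a test of it.

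Of the 38 genes whose mean reached 1000 normalized counts, 3 rose and 4 fell. These counts depended on the scaling, with 9 higher and 5 lower as plain CPM. With totals that left out the 20 most abundant genes, 3 were higher and 8 lower. The genes called with the deposited normalization were chosen for description after their values were seen. One of the rises was ENSBTAG00000015940, given above. The gene of level rank 33 went from 876, 387, 246 and 119.8 at 0 h to 2115, 3729.7, 2054 and 715 at 24 h (2.54 ± 0.22, SE, adjusted p = 1.14e-07, limma). Its groups overlapped across cows, since cow 1 at 0 h was above cow 4 at 24 h, but each cow rose. It resembled ENSBTAG00000015940 in that cow 1 was highest and cow 4 lowest at 0 h and that cow 4 was lowest at 24 h. The remaining rise, of level rank 30, was small and unsteady, from 1366, 855, 1470.2 and 1273 to 1279, 1610.1, 1879 and 2082 (0.47 ± 0.15, adjusted p = 0.0498, limma). It was seen in 3 of 4 cows and passed in 6 of 19 alternative analyses.

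The gene of level rank 35 fell from 1479, 1618, 2039 and 1436 at 0 h to 404, 1164, 581 and 597 at 24 h (-1.36 ± 0.20, SE, adjusted p = 0.000112, limma). It was unlike the fifth most abundant gene in its course. It was at 241, 307, 237 and 204 at 12 h, and was higher again at 24 h by 1.38 on the log2 scale (adjusted p = 0.000274, limma). At 72 h it stood at 2236, 2736 and 1112.

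Both remaining falls rested more on cow 1. The gene of level rank 22 had 3337, 2751, 2785 and 2958 normalized counts at 0 h and 228, 2336, 1177 and 1076 at 24 h. Cow 1 lost most of the signal, at -3.87 on the log2 scale, and cow 2 very little, at -0.24. The fitted change was -1.70 ± 0.39 with cow 1 and -0.98 without it (adjusted p = 0.00599 and 0.0111, limma). The gene of level rank 23 had 3574, 2840.1, 2407 and 2809.8 at 0 h and 395, 1907, 855 and 1464 at 24 h, for a change of -1.55 ± 0.35 with cow 1 and -1.0 without it (adjusted p = 0.00643 and 0.0455, limma). Neither passed with a constant prior variance (adjusted p = 0.0588 and 0.0613, limma). In both genes cow 1 was the highest at 0 h and the lowest at 24 h.

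**Figure D5:**
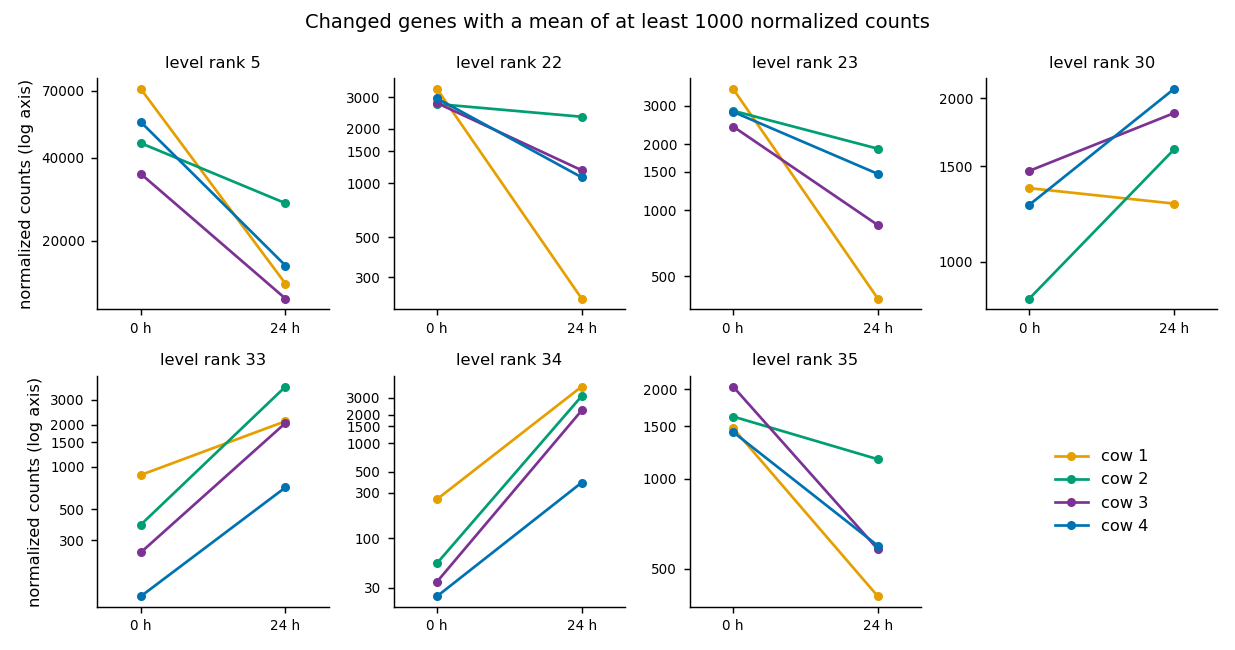
Normalized counts (log axis, a different range in each panel) at 0 h and 24 h of the 7 called genes whose mean reached 1000, with 1 line per cow, each panel headed by the gene's rank of level. Cow 1 (orange) has the steepest line for level ranks 5, 22, 23 and 35, and is the only cow that falls for level rank 30.

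Cow 1 differed from the other cows in further abundant genes, which were also chosen after their values were seen. The gene of level rank 31 went from 2069, 1533, 1840.1 and 1637 at 0 h to 237, 1706, 1101 and 1239 at 24 h. It fell by 3.12 on the log2 scale in cow 1 and rose by 0.15 in cow 2, and the fitted change of -1.03 had an adjusted p of 0.0519 (limma), or -0.33 and 0.283 without cow 1. The gene passed in 7 of 19 alternative analyses, plain CPM among them (adjusted p = 0.0340, limma). The gene of level rank 16 went from 7665 to 2269 in cow 1 and from 4737 to 7766 in cow 2, 6100.3 to 6145 in cow 3 and 5348 to 7652 in cow 4. The scaling factor of cow 1 changed by -0.63 on the log2 scale from 0 h to 24 h, against 0.18, -0.13 and 0.06 in the other cows, and its part in these falls was not tested. Of the 20 most abundant genes, 15 were lower at 24 h in cow 1 on the deposited scale, with a median change of -0.15, against 6, 6 and 4 in cows 2, 3 and 4. Without the factor 7 were lower in cow 1, with a median change of 0.48, against 10, 4 and 6 in the other cows. The factor moves all genes of a library alike, so the count for cow 1 depends on the scale chosen and is no result about these genes.

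Of the identifiers printed by the study, ENSBTAG00000047136 had 187, 181, 163 and 196 normalized counts at 0 h and 169.7, 319.6, 247 and 239 at 24 h. It was higher in cows 2, 3 and 4 and lower in cow 1. The change of 0.39 ± 0.14 (SE, n = 4 cows) had an adjusted p of 0.0855 (limma), and without cow 1 it was 0.57 with an adjusted p of 0.0153 (limma). This gene passed in 2 of 19 alternative analyses, which were the one without cow 1 and plain CPM (adjusted p = 0.0132, limma). The study lists it among genes upregulated at 24 h, from fewer cows than entered here. ENSBTAG00000047609 had 417, 172, 136 and 53.3 at 0 h and 115, 123, 90.8 and 40.2 at 24 h. Each cow fell, cow 1 by far the most, and the values of the cows overlapped between the times. Its change was -0.83 ± 0.20 (SE, adjusted p = 0.0107, limma), and -0.49 with an adjusted p of 0.108 without cow 1 (limma). It passed in 15 of 19 alternative analyses, and was also lost with no term for cow (adjusted p = 0.390), with cow as a correlation (0.307) and with a constant prior variance (0.0754, all limma).

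Some genes were read at only one of the times. Of the 13904 genes with a read in some library, 27 had no read at 0 h and a read in all 4 libraries at 24 h. The reverse was seen for 2. That reverse class needs a read in cow 4 at 0 h, the library with the fewest reads (1804120). Where a read in any library at the other time was enough, 1183 genes were read only at 24 h and 690 only at 0 h. The 24 h set was 1.32 times deeper, and all 27 were too low to enter the test, with a median of 10 reads at 24 h. The one with most reads had 29, 7, 7 and 8 reads in cows 1 to 4 at 24 h and none at 0 h. Against the limit of 3 reads over the 4 libraries at 0 h it was at least 11.6-fold higher, and without cow 1 at least 5.09-fold higher (22 reads in the other 3 cows at 24 h). The gene was picked for its reads at these times, so the ratios describe it and are no test. They also take the reads at 24 h as exact. The same gene had 3, 2, 1 and 8 reads at 12 h and 0, 4 and 0 at 72 h in cows 2, 3 and 4.

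How closely the genes that did not pass were measured depended on their level. The 95% interval of the change lay within 1.5-fold in either direction for 1221 of these 6694 genes, or 18.2%. Among the 227 of them whose mean reached 100 normalized counts it did so for 158, or 69.6%. The spread among cows was somewhat wider after DEX, with a median SD of the log2 values of 0.30 at 24 h and 0.25 at 0 h over the 2889 genes with a mean of at least 10.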

How the data were processed

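The authors prepared 3′ tag libraries (QuantSeq FWD), trimmed reads with HTStream, aligned them with STAR (version 2.6.0c) against the cow assembly UMD3.1 with Ensembl genes and deposited normalized counts, a signal equal to CPM times a scaling factor per library. The factors match those of TMM in edgeR (version 4.0.16) on reads recovered from the steps of the values, 100% of which came out whole (tolerance 0.01 of a read).

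The comparison was made with limma (version 3.58.1, R 4.3.3; lmFit, eBayes with trend) on log2(normalized count + 0.5), a scale that understates the change of low genes. All 15 libraries entered, with time point as a factor and cow as a fixed term. The file holds 24616 identifiers, of which 13904 had a read and 7536 reached a mean of 1 normalized count and were tested, with p-values adjusted by Benjamini-Hochberg and called under 0.05. The cow numbers pair the libraries, since each number is 1 animal, and the deviations of its 0 h and 24 h libraries from the time means correlated at 0.24, 0.19, 0.44 and 0.45 in cows 1 to 4 (2889 genes). Alternatives covered filter, pseudocount, scaling, pairing, leaving out each cow, and tests on the recovered counts with edgeR, DESeq2 (version 1.42.0) and limma-voom. The procedure was tested on simulated data, and the outcome is not given here.

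The largest changes were named among genes past the threshold with the same direction in 4 cows whose mean over the 8 libraries reached 4 normalized counts (393 rises and 287 falls), 10 per direction. Members, lists and rules were chosen with earlier results of these data known. Gene symbol and cell marker lists were not analysed, since no identifier could be paired with a symbol here. Reads carry no molecular identifiers in the sources used here, so intervals and 3-read limits cover counting error only.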

Additional observations from a re-analysis of the deposited data

Results flagged for a closer look

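Among the 4-library groups examined for the genes described above and the scaling factors, 8 of 117 had a library set apart from the others by more than Dixon's 95% critical value for 4 samples, where chance gives about 1 in 20. The count is not far above that share, so the libraries below are listed as description only. At 0 h, cow 1 stood apart for ENSBTAG00000015940, at 256 normalized counts against 24.3 in the lowest cow, and in its scaling factor, 1.25. Cow 2 stood apart for ENSBTAG00000017328, at 16.7. Cow 3 held the only read of ENSBTAG00000009870, a value of 0.301. A single value above 0 among values of 0 is always set apart by this measure. Cow 4 stood apart for the gene with the ninth largest rise, at 3.47, and for the third most abundant gene, at 58024, below the other cows at 100388 to 107344. At 12 h, cow 4 was high for the gene with the fourth largest rise, at 902, and cow 1 had 0 for the gene with the fifth largest fall. At 24 h no library stood apart by this measure.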

How the results depend on the processing

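No alternative turned the sign of the 27 called genes among the 36 followed. Of the 9 not called, 6 changed sign, in each case to a value that did not pass. Among these 9, the genes of level ranks 6 and 31 and ENSBTAG00000047136 passed in 1, 7 and 2 of the 19 alternatives. Leaving out 1 cow moved the log2 changes of the genes of level ranks 2, 3, 6, 16 and 32 from -0.18 to 0.18, -0.25 to 0.15, -0.054 to 0.28, -0.41 to 0.41 and -0.38 to 0.29. As plain CPM those of ranks 2, 3, 16 and 32 were 0.096, 0.049, 0.0035 and 0.028. With quantile normalization those of ranks 2, 3 and 4 were 0.044, 0 and 0.40, and with totals that left out the 20 most abundant genes that of rank 6 was -0.023. The 10 largest rises and 10 largest falls passed under every alternative in which they were tested. Leaving out 1 cow moved the total from 420 to 794 genes, the higher genes from 235 to 408, the lower genes from 185 to 386, and the 24 h against 12 h total from 241 to 572. A constant prior variance gave 556 genes in all, 249 lower, and 366 for 24 h against 12 h. A filter at a mean of 10 normalized counts left 252 lower genes, no filter left 426 for 24 h against 12 h, and plain CPM, chosen after seeing the data, gave 237 lower genes. The cause of these differences was not tested, except that fewer genes or samples entered under a stricter filter or without a cow. Without the replicate block for cow, 608 genes passed (453 for 24 h against 12 h); with cow as a correlation 714, and with the 8 libraries alone 604. On recovered reads edgeR called 792 genes, DESeq2 725 and limma-voom 939. Genes under 10 normalized counts had a median SE of 0.34 on the log2 scale, so only large changes could be called there.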
